A study of Mus musculus with 24 samples.

Results

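A set of 8 genes of the response to fasting and fatty acids were examined in the gastrocnemius, a mixed hind limb muscle, of mice kept in a small mouse cage (SMC) that restricts movement and of ambulatory sham mice. They were the receptor genes Ppara and Ppard and the target genes Angptl4, Ucp2, Ucp3, Cpt1a, Acot1 and Acot2. They were listed by symbol, mapped from Ensembl identifier, and chosen with earlier results of these data known. Counts and medians of the 8 set beside those of all genes thus describe the set and support nothing further. The 8 genes are among the 55416 genes counted, and all 8 passed the filter on low counts that kept 16408 genes for testing. Pdk4 served as an outside reference. All 24 mice were C57BL/6J (spelled C56BL6J in the labels), bought at 8 weeks of age, wild type in every group, and all were fasted before tissue collection under ketamine and xylazine. Male and female mice had 8 weeks of SMC or sham housing, with 6 mice in each of the 4 groups, numbered 1 to 24 in the labels. The study asked how inactivity alters the choice of fuel in muscle, and the tissue holds fibres together with vessel, fat and immune cells, so that in these bulk libraries fewer cells of a type and less RNA per cell cannot be told apart.

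PPARs are nuclear receptors that bind fatty acids, pair with RXR and switch on genes of fatty acid uptake and oxidation. In fasting, fatty acids released from fat tissue reach muscle, and PPARα and PPARδ raise the transcription of genes that favour fat over glucose. One of these is Pdk4, a kinase that inactivates pyruvate dehydrogenase and so limits the entry of pyruvate into mitochondria. The other targets here act along the same route. Angptl4 is a secreted inhibitor of lipoprotein lipase, Cpt1a encodes a carnitine palmitoyltransferase that admits long-chain fatty acids to mitochondria, Acot1 and Acot2 encode the cytosolic and the mitochondrial acyl-CoA thioesterase, and Ucp2 and Ucp3 encode carriers of the inner mitochondrial membrane.

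Total counts per library lay between 23026627 and 36880413. The 6 skeletal muscle markers were present in all libraries, with a summed level of at least 62323 CPM (counts scaled to a common library size by TMM). Male sham mouse 4 and female sham mouse 7 stood apart: their summed levels of 10 slow fibre markers were 86.4 and 72.9 CPM, against 692 to 4459 CPM in the other 22 libraries. Values without these mice are given beside the results that moved most when they were left out.

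Per kilobase of exon, which makes levels comparable between genes, Pdk4 had a mean level of 428 CPM per kb over the 24 mice. Among the 8 genes Ucp3 stood first with 70.2 ± 34.5 CPM per kb (SD, n = 24). Acot2 followed with 15.4 ± 6.07. The receptors were lower, with Ppara at 5.67 ± 2.36 and Ppard at 4.11 ± 0.541. Ucp2 (3.52 ± 1.19), Cpt1a (3.24 ± 0.526) and Angptl4 (2.93 ± 1.06) followed, and the SDs of these neighbours from Ppara to Angptl4 overlapped. Acot1 was last with 0.493 ± 0.356 CPM per kb, which rests on 8 to 177 counts per library, against 2642 to 12682 for Ucp3.

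**Figure D1:**
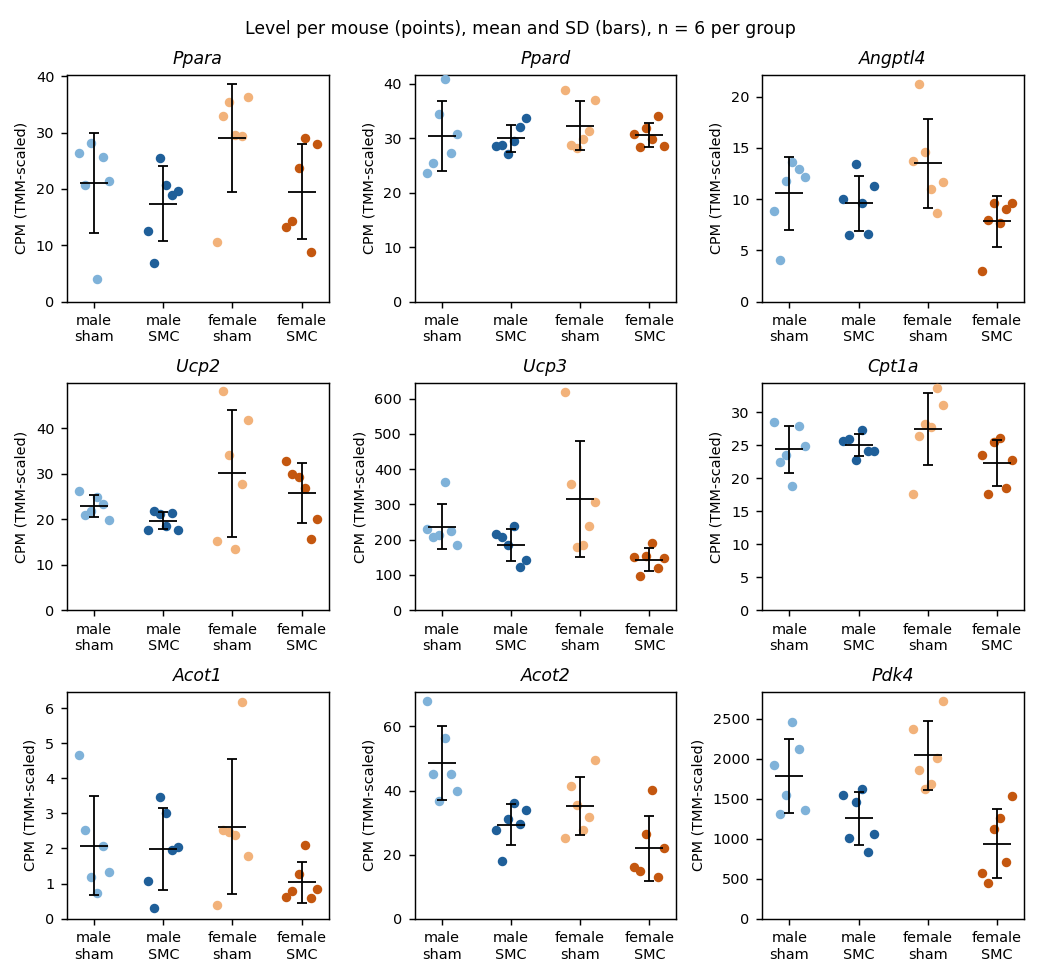
Level of each of the 8 genes and of Pdk4 in CPM (vertical axes start at 0) by group, with a point for each mouse, in order of mouse number, and bars for the mean and SD of 6 mice. Acot2 in males and Pdk4 in females are the panels in which every SMC mouse lies below every sham mouse of the same sex.

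Averaged over the sexes, SMC mice had lower Ucp3 and Acot2 than sham mice, and the other 6 genes did not pass the test. Ucp3 fell by 0.74 on the log2 scale (SE 0.18, FDR 0.0261, edgeR quasi-likelihood test) and Acot2 by 0.70 (SE 0.16, FDR 0.0242), folds of 0.597 and 0.614. The reference Pdk4 fell by 0.82 (SE 0.18, FDR 0.0166), and in females its SMC range (448 to 1530 CPM) lay below its sham range (1614 to 2722 CPM), as was so with 0.634% of all genes. In males Pdk4 ranged from 1304 to 2453 CPM in sham and from 827 to 1620 CPM in SMC mice, which overlapped. The female value of Pdk4 was -1.12 (SE 0.25, FDR 0.0496), a call kept in 4 of 24 fits that left out 1 library and lost with no filter (FDR 0.0537), under limma voomWithQualityWeights (FDR 0.0609) and with the 12 female libraries alone (FDR 0.153). Thus 2 of 8 genes were called, both lower after SMC, beside 2.36% of all genes tested called and 1.33% called and lower. At an unadjusted p under 0.05 there were 3 of 8, all lower in SMC, where 9.65% of all genes were lower at that threshold. All 8 log2 fold changes lay below 0, as did those of 52.4% of all genes, and their median was -0.45 against -0.01 over all genes.

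Within the sexes fewer calls were made. In females Ucp3 alone was called, 1 of 8 genes against 0.341% of all genes called and 0.219% called and lower, and 5 of 8 had an unadjusted p under 0.05 and were lower (7.47% of all genes). In males none of the 8 was called by edgeR, and neither was any other gene (0%, with 888 genes higher and 917 lower at an unadjusted p under 0.05), while DESeq2 called 128 genes in males and none of the 8. At an unadjusted p under 0.05, Acot2 was the 1 of 8 that was lower in males, beside 5.59% of all genes. Over the 8 genes the log2 fold changes had a median of -0.63 in females and -0.18 in males. The difference between the sexes in response was called for none of the 8 and for 0% of all genes by edgeR, and for 1 gene, not one of the 8, by DESeq2. At an unadjusted p under 0.05 it was 1 of 8, Ucp3, beside 5.13% of all genes. Its male minus female difference was 0.78 (SE 0.35, FDR 0.946, edgeR), and 0.46 without female sham mouse 7, so that a weaker response in males was not shown.

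**Figure D2:**
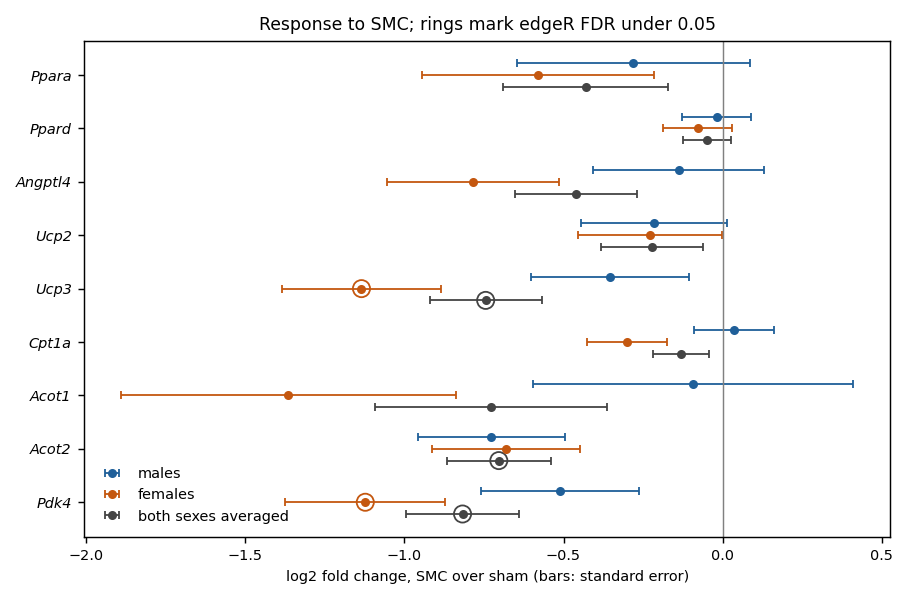
Log2 fold change of SMC over sham (horizontal axis) in males, females and averaged over the sexes for each gene, with bars for the standard error and rings for an edgeR FDR under 0.05. Rings mark Ucp3 and Pdk4 in females, calls that are lost under limma voomWithQualityWeights, and Ucp3, Acot2 and Pdk4 in the average, while the Ppard values lie between -0.08 and -0.02.

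Ppara, the receptor that dominates the fasting response in liver and is also made by oxidative fibres, had a lowest, median and highest level of 4.06, 23.6 and 28.2 CPM in male sham mice and of 6.88, 19.2 and 25.6 CPM in male SMC mice. In females these were 10.5, 31.2 and 36.4 CPM in sham and 8.89, 19.01 and 29.0 CPM in SMC. The lowest sham values of both sexes belong to mice 4 and 7, the mice low in slow fibre markers, and the groups overlapped. The log2 fold change was -0.28 (SE 0.37) in males and -0.58 (SE 0.36) in females, and averaged -0.43 (FDR 0.405). Without those mice the averaged value was -0.62 (FDR 0.0680, edgeR). Once the slow fibre score (the mean log2 CPM of the 10 markers) was added to the model it was -0.78 (FDR 0.00632), and in females -1.05 (FDR 0.0200).

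Ppard encodes PPARδ and had a mean of 4.105 CPM per kb over the 24 mice, against 5.67 for Ppara, with overlapping SDs. Its lowest, median and highest levels were 23.6, 29.1 and 40.9 CPM in male sham mice, 27.2, 29.1 and 33.7 CPM in male SMC mice, 28.2, 30.6 and 38.8 CPM in female sham mice and 28.4, 30.4 and 34.0 CPM in female SMC mice. The highest sham values of each sex again came from mice 4 and 7, and the groups overlapped throughout. The averaged log2 fold change was -0.05 (SE 0.08), and its sign turned in 3 other settings, at 0.02 to 0.03.

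Ucp3, a carrier found mainly in skeletal muscle and raised by fatty acids, had levels of 178, 273 and 618 CPM (lowest, median, highest) in female sham mice and 95.7, 150 and 190 CPM in female SMC mice. Of the 6 female SMC mice, 5 lay below every female sham mouse, and SMC mouse 22 alone overlapped with the sham range. In males the levels were 186, 218 and 363 CPM in sham and 122, 196 and 240 CPM in SMC, with broad overlap. The female log2 fold change was -1.13 (SE 0.25, FDR 0.0496) and the male one -0.35 (SE 0.25, FDR 0.655). Mice 4 and 7, with 363 and 618 CPM, were the highest sham mice of their sex. Without mouse 4 the male value was -0.20. Without both, the female log2 fold change was -0.82 (FDR 0.0387) and the averaged one -0.51 (FDR 0.0395, edgeR). The female call was kept in 3 of 24 fits that left out 1 library, with FDR from 0.0147 to 0.115 over the 24. It was lost under limma voomWithQualityWeights (FDR 0.130) and with the 12 female libraries alone (FDR 0.153). The averaged call was kept in 24 of 24 such fits and lost under limma voomWithQualityWeights (FDR 0.0592).

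Ucp2, the carrier expressed in many tissues and in immune cells, had levels of 19.9, 22.6 and 26.2 CPM in male sham mice and 17.7, 19.8 and 21.8 CPM in male SMC mice. In females the levels were 13.4, 30.9 and 48.2 CPM in sham and 15.5, 28.1 and 32.7 CPM in SMC. The female sham mice spread more widely than the other groups, and all groups overlapped. The averaged log2 fold change was -0.22 (SE 0.16, FDR 0.510). Deviations of Ucp2 from the group mean had r = 0.47 with a score of 10 macrophage markers over the 24 mice (permutation p = 0.176, FDR 0.528 over 6 relations; rho = 0.53, FDR 0.168), and r = 0.42 without the 2 mice farthest on that score. The summed level of these markers, none at 0, ranged from 46.1 to 201 CPM in sham females and from 80.7 to 113 CPM in SMC females. Scores of endothelial, adipocyte and red blood cell markers had r = 0.30, -0.05 and 0.53 with Ucp2, with FDR of 0.373 or more, and the part of other cells in its spread was not tested. Ucp2 overlaps Dnajb13 on the opposite strand, and Ucp3 an antisense gene, Gm10603; the kit marks strand, and how strand was treated in counting is not given in the sources used here.

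Angptl4, which restrains the uptake of triglyceride fatty acids, had levels of 8.69, 12.7 and 21.2 CPM in female sham mice, and 3.03, 8.50 and 9.65 CPM in female SMC mice. All 6 SMC females lay below the sham median, 3 of them below every sham female. In males the levels were 4.08, 12 and 13.6 CPM in sham and 6.53, 9.81 and 13.4 CPM in SMC, which overlapped broadly. The log2 fold change was -0.78 (SE 0.27, FDR 0.194) in females and -0.14 (SE 0.27, FDR 0.905) in males, by edgeR. Leaving out female sham mouse 8, the highest of its group, moved the female value to -0.61. Angptl4 is also made by fat cells. The summed level of 6 adipocyte markers, none at 0 in any group, ranged from 19.02 to 92.4 CPM in female sham and from 16.3 to 183 CPM in female SMC mice, and Angptl4 had r = 0.18 with their score (permutation p = 0.472, FDR 0.639; rho = 0.27, FDR 0.468; r = 0.31 without the 2 mice farthest on the score).

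Cpt1a is the liver-type carnitine palmitoyltransferase, while Cpt1b serves most of the flux in muscle. Its levels were 17.6, 28.0 and 33.6 CPM in female sham mice and 17.6, 23.2 and 26.1 CPM in female SMC mice, and the lowest sham value was that of mouse 7. Male mice had 18.8, 24.2 and 28.5 CPM in sham and 22.7, 24.9 and 27.3 CPM in SMC. The groups overlapped in both sexes. The log2 fold change was -0.30 (SE 0.12, FDR 0.301) in females and 0.04 (SE 0.12) in males, by edgeR. The female value passed the threshold without mice 4 and 7 (-0.39, FDR 0.0484) and with the slow fibre score in the model (-0.41, FDR 0.0350).

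Acot2 had log2 fold changes of like size in males and females, with a difference between the sexes of -0.05 (SE 0.33) that was not called. Its levels were 36.6, 45.2 and 68.1 CPM in male sham mice and 18.1, 30.2 and 36.1 CPM in male SMC mice. In males every SMC mouse lay below every sham mouse, by a margin of 36.1 against 36.6 CPM, and 0.311% of all genes had such a separation with SMC lower. In females the levels were 25.1, 33.7 and 49.5 CPM in sham and 12.9, 18.96 and 40.1 CPM in SMC, and 4 of 6 SMC females lay below every sham female. The log2 fold change was -0.73 (SE 0.23, FDR 0.235) in males and -0.68 (SE 0.23, FDR 0.187) in females, by edgeR. Neither passed alone, and the averaged value was called in 24 of 24 fits that left out 1 library (FDR from 0.00653 to 0.0470).

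Acot1 was the least expressed of the 8, with 0.390, 2.42 and 6.17 CPM in female sham mice and 0.599, 0.819 and 2.10 CPM in female SMC mice. In males the levels were 0.745, 1.70 and 4.65 CPM in sham and 0.311, 2.003 and 3.47 CPM in SMC. All groups overlapped, and the lowest sham mouse of each sex was mouse 4 or mouse 7. The log2 fold change was -1.36 (SE 0.53, FDR 0.255) in females and -0.09 (SE 0.50) in males, by edgeR. With the slow fibre score in the model the female value was -1.78 (FDR 0.0387). Without female sham mouse 11, the highest of the group, it was -0.92.

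Acot1 and Acot2 are near copies, which bears on how far their counts are separate. In GENCODE gene models of build GRCm38 their coding sequences were identical at 1181 of 1236 aligned bases (95.6%), with a longest identical run of 273 bases. For comparison, Ucp2 and Ucp3 shared 75.2% and Ppara and Ppard 68% of aligned coding bases. Of all 50-base windows in the transcripts, 19.2% of those of Acot1 and 27.7% of those of Acot2 also occurred in a transcript of another gene. For windows of 100 bases the shares were 12.4% and 17.1%. Reads from such stretches can be split between the genes or dropped, so that the counts of both are uncertain, to an extent that depends on read length. The stretch with the most differences shows where the counts can tell them apart, with 14 differing bases in capitals, at coding bases 787 to 886 of Acot1 and 910 to 1009 of Acot2:
Acot1: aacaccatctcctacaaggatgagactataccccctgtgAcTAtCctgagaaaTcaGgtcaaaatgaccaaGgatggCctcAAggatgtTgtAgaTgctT
Acot2: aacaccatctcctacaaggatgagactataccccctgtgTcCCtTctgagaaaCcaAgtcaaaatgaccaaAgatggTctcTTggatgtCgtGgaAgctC
In the 100 bases from 1060 of Acot1 and 1183 of Acot2 the letters were the same, so that no read within them can be assigned by sequence:
Acot1 and Acot2: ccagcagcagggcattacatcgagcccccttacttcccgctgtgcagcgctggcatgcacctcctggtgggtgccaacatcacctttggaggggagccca

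Between sham males and sham females none of the 8 genes was called, where 1.97% of all genes were. Acot2 was the one gene higher in males (log2 fold change 0.46, FDR 0.333), and the other 7 were lower in males, from -0.46 for Ppara to -0.09 for Ppard. The Ppara value was -0.24 without male sham mouse 4, and the Ppard value was -0.021 without male sham mouse 1.

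The wider PPAR network was described by lists of related genes. Of 16 other receptors and coregulators, Ncor1, a corepressor of nuclear receptors, rose in the average over the sexes (0.18, SE 0.05, FDR 0.0480) and none fell. The call of Ncor1 was kept in 3 of 24 fits that left out 1 library and lost with no filter (FDR 0.131). The extremes of this list were Nrip1 (-0.23, FDR 0.356), Lpin1 (-0.22, FDR 0.256) and Ppargc1b (0.31, FDR 0.573). Of 29 tested genes among 30 further PPAR targets of lipid uptake, transport and oxidation, Pdk4 fell and no other passed. These 29 had a median log2 fold change of -0.04, against -0.45 for the 8 genes and -0.01 for all genes. Beside Pdk4 the extremes were Plin5, which coats lipid droplets (-0.58, FDR 0.232), Cpt2 (0.07, FDR 0.827) and Ech1 (0.15, FDR 0.705). Between the sham groups Vldlr, a lipoprotein receptor, was the target called, higher in males by 0.71 (FDR 0.0271). That call was kept in 6 of 6 other settings and in 22 of 24 fits that left out 1 library. The value was 0.52 without male sham mouse 4. In that comparison 26 of the 29 targets were higher in males and 3 lower, with a median of 0.27. Among all 16408 genes tested, 8137 were higher in sham males, while 7 of the 8 genes were lower.

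Of 15 tested paralogues of the 8 genes, Angptl7 fell by 1.22 (SE 0.33, FDR 0.0498) in the average, and no other passed. That call was kept in 6 of 24 fits that left out 1 library, and lost with no filter (FDR 0.0651), under limma voomWithQualityWeights (FDR 0.109) and with the slow fibre covariate (FDR 0.0507). Angptl2 came next to the threshold in the other direction (0.32, FDR 0.0961), and Acot4 (-0.31, FDR 0.683) and Cpt1c (0.18, FDR 0.543) were the further extremes. A list of 16 genes linked to fasting or glucocorticoids outside the PPAR lists was chosen with earlier results of these data known, so that its counts describe the list and support nothing further. It had a median log2 fold change of -0.90, and 11 of the 16 fell in the average, beside 1.33% of all genes. These were Ddit4, an inhibitor of mTORC1 (-2.39, FDR 0.0217), the metallothioneins Mt2 (-1.90, FDR 0.00296) and Mt1 (-1.21, FDR 0.0283), the transcription factors Cebpd (-1.71), Foxo1 (-1.08), Cebpb (-0.80), Klf15 (-0.57) and Foxo3 (-0.49), the ubiquitin ligase Trim63 (-1.49), and Fkbp5 (-1.41) and Sesn1 (-0.94). With 1 library left out, 8 of these 11 were called in 24 of 24 fits, Mt1 in 22, Foxo1 in 21 and Klf15 in 8. Under limma voomWithQualityWeights the calls of Ddit4 (FDR 0.245), Mt1 (FDR 0.129), Cebpd (FDR 0.0563) and Foxo1 (FDR 0.0525) were lost. Without mice 4 and 7, Ddit4 was at -1.40 (FDR 0.0612) and Klf15 at -0.36 (FDR 0.0659), and with the slow fibre covariate they had FDR of 0.0702 and 0.0891. Klf15 was lost with no filter too (FDR 0.0651). Leaving out male sham mouse 4 alone moved Trim63 to -0.95, Cebpd to -1.175, Fkbp5 to -1.12, Foxo1 to -0.75 and Sesn1 to -0.63. Txnip (-0.00037) and Irs2 (-0.05) were nearest to 0, and the sign of both turned in other settings. Within the sexes Mt2 was called in females (-2.10, FDR 0.0228) and none of the 16 in males. At an unadjusted p under 0.05 (edgeR), 12 of the 16 were lower in males, beside 5.59% of all genes. The female call of Mt2 was kept in 19 of 24 fits that left out 1 library, and lost under limma voomWithQualityWeights (FDR 0.139) and with the 12 female libraries alone (FDR 0.129). Between the sham groups Mt2 was lower in males (-1.73, FDR 0.0223), a call kept in 21 of 24 such fits and lost under limma voomWithQualityWeights (FDR 0.0960).

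**Figure D3:**
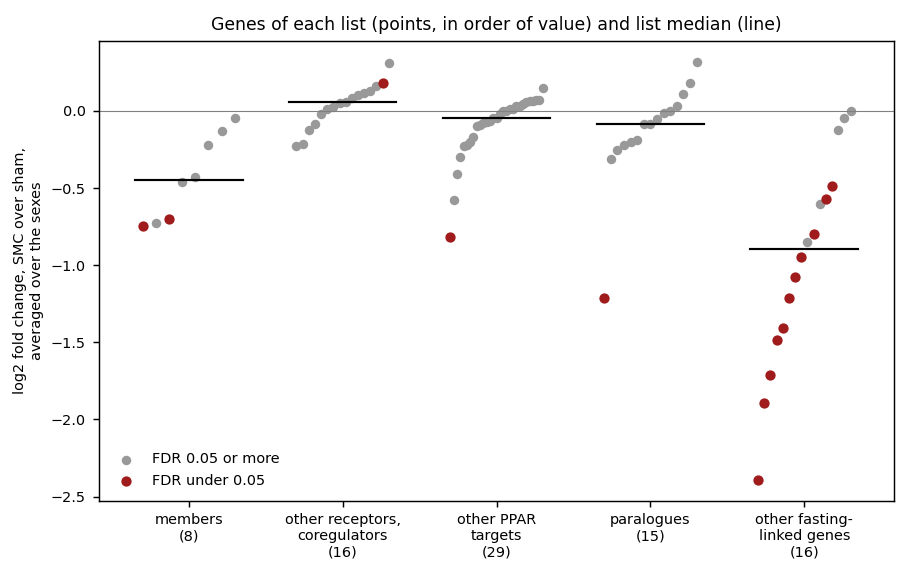
Log2 fold change of SMC over sham averaged over the sexes (vertical axis) for each tested gene of 5 lists, in order of value, with lines for list medians and red points for an edgeR FDR under 0.05. The 29 other PPAR targets have a median of -0.04, while the 8 members have -0.45 and the 16 other fasting-linked genes -0.90. The lists were chosen with earlier results of these data known.

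Whether the genes rise and fall together from mouse to mouse was examined on deviations of log2 CPM from each group's mean, so that the group differences above do not enter. Ucp3 followed Pdk4, with r = 0.62 (permutation p = 1.9e-04, FDR 0.00152 over the 8 genes) and rho = 0.65 (FDR 0.00376) over 24 mice. In 18 of 24 mice both deviated to the same side. Only 0.134% of 16407 genes had a higher r with Pdk4, and 1.07% had an r of at least 0.5. Within the groups r was 0.82 in sham and 0.80 in SMC males and 0.66 in sham and 0.73 in SMC females, with exact permutation p of 0.00833, 0.0667, 0.156 and 0.0931 and none below an FDR of 0.05 over 32 values. Without female SMC mice 20 and 24, the farthest in Pdk4, r was 0.63.

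Acot2 had r = 0.59 with Pdk4 (permutation p = 0.0160, FDR 0.0641), which missed the threshold, and rho = 0.63 (FDR 0.0229), which passed it. Without mice 20 and 24 r was 0.59, and 0.287% of genes had a higher r. Angptl4 had r = 0.43 (FDR 0.166; rho = 0.36, FDR 0.183; r = 0.49 without mice 20 and 24), with 2.44% of genes higher. Cpt1a (r = 0.22, rho = 0.29), Ppard (0.15 and 0.17), Acot1 (0.11 and 0.19), Ppara (0.11 and 0.41) and Ucp2 (-0.04 and -0.07) did not pass in either measure, with FDR of 0.183 or more. The Pearson values of Cpt1a and Ppara turned on the mice low in slow fibre markers: without mice 4 and 7, Cpt1a had r = 0.63 (FDR 0.0408) and Ppara r = 0.56 (FDR 0.0765) with Pdk4.

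**Figure D4:**
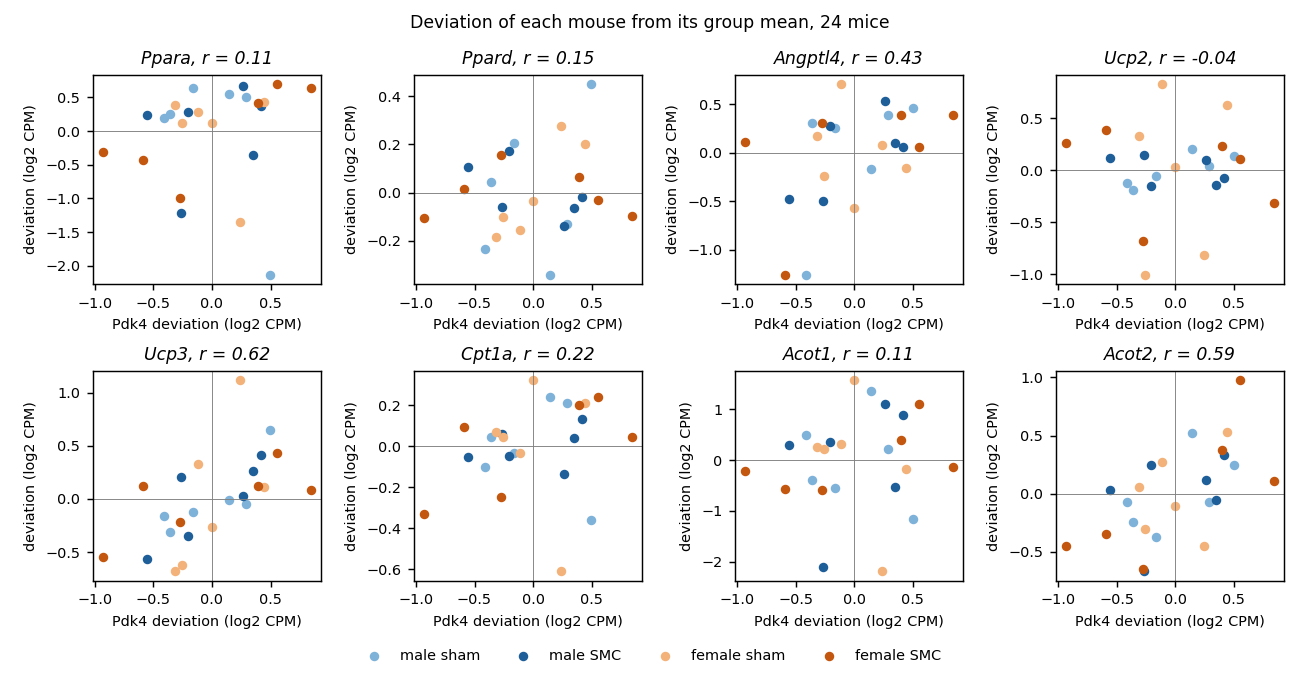
Deviation of each mouse from its group mean for each of the 8 genes (vertical axes, log2 CPM) against that of Pdk4 (horizontal axes, log2 CPM), 24 mice coloured by group. Ucp3 follows Pdk4 (r = 0.62), Acot2 has r = 0.59, which missed the threshold on Pearson r, and the lowest Ppara points belong to male sham mouse 4 and female sham mouse 7.

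The promoters of Ucp3, Acot2 and Pdk4, the genes that were lower after SMC in the average, are shown for the 250 bases upstream of the start in RefSeq (GRCm38.p6). The table held promoters for 8 of the 9 genes, without Angptl4. PPARs and RXR bind a direct repeat of the hexamer AGGTCA spaced by 1 base. The exact repeat, sought on both strands, was in 0.0335% of 32851 promoters and in none of the 8. The looser form with AGGNCA for each hexamer, which includes the exact one, was in 0.338% and in none of the 8. A single AGGTCA was in 14% of promoters, and of the 8 genes in Ucp3 (first bases at -149 and -44 from the start) and, on the opposite strand, in Cpt1a (-94). Such a match is a description of letters and not a binding site, and a missing one says nothing of sites elsewhere. In the lines that follow capitals mark AGGTCA, for Ucp3 at chr7:100472741-100472990 (plus strand), Acot2 at chr12:83987611-83987860 (plus strand) and Pdk4 at chr6:5496279-5496528 (minus strand):
Ucp3: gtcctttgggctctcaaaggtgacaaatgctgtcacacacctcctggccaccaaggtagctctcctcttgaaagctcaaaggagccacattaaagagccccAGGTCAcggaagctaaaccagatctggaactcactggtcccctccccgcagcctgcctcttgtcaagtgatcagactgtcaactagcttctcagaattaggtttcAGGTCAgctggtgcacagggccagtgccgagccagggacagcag
Acot2: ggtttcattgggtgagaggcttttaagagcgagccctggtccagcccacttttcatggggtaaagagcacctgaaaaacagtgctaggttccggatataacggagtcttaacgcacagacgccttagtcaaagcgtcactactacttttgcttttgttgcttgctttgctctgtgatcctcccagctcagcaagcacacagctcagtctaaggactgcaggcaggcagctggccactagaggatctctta
Pdk4: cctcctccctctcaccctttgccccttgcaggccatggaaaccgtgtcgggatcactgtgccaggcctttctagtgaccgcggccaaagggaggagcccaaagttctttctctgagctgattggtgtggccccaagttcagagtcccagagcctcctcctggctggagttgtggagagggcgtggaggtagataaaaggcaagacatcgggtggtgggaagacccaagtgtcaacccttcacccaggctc

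Covariation with the slow fibre score was examined in the same way. Mice 4 and 7 lie far from the rest on it, so that values over the other 22 mice are given first. Ppara followed the score with r = 0.85 (permutation p = 4e-05, FDR 0.000360 over 9 genes). Acot2 had r = 0.65 (FDR 0.00383) and Acot1 r = 0.62 (FDR 0.0305), while Pdk4 had r = 0.41 (FDR 0.186) and Cpt1a r = 0.35 (FDR 0.186). Ucp3 had r = -0.05 and Ppard r = 0.01. With mice 4 and 7 included, Ppara had r = 0.90 and rho = 0.72, both at the smallest p that the permutations can give (1e-05), and in 24 of 24 mice the gene and the score deviated to the same side. Over all 24 mice Acot1 had r = 0.73 (FDR 0.001125) and Pdk4 r = -0.10 (FDR 0.652). Acot2 had r = 0.33 (FDR 0.119) and rho = 0.42 (FDR 0.0609) over all 24, so that it passed only without mice 4 and 7. The values of Ucp3 (r = -0.64, FDR 0.0268, and rho = -0.39, FDR 0.126) and Ppard (r = -0.59, FDR 0.0345, and rho = -0.34, FDR 0.210) over all 24 mice rest on those 2 mice. Cpt1a had r = 0.76 (FDR 0.00426) over all 24 mice. Its r was 0.35 without those 2, while its rho over all 24 passed (0.61, FDR 0.00788).

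The difference in slow fibre score between SMC and sham mice rested largely on mice 4 and 7. SMC minus sham was 0.86 in males and 1.22 in females on the log2 scale with all mice, and 0.03 and 0.27 without those mice. The summed level of the 10 slow fibre markers had a median of 1578 CPM in sham and 2212 CPM in SMC males, and of 2112 CPM in sham and 3036 CPM in SMC females, and without mice 4 and 7 the sham medians were 1849 CPM in males and 2426 CPM in females. Of the 10 markers, 7 had a log2 fold change above 0 in males and 3 below it, and 10 were above 0 in females and in the average, where the median was 0.57. None passed the test or had an unadjusted p under 0.05. With the score as a covariate, 4 of the 8 genes were called in females (Ppara, Ucp3, Cpt1a and Acot1) and 5 in the average (these and Acot2), all lower after SMC. Of the 16408 genes tested, 177 and 728 were called in that fit, in either direction. Mice 4 and 7 lie far from the rest on the score, so that its slope may rest largely on them. For Ucp3, r with the score was -0.64 over all 24 mice and -0.05 without those mice. No member of the 8 was called in males in that fit. Whether fibre makeup takes part in the differences between groups was not tested.

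**Figure D5:**
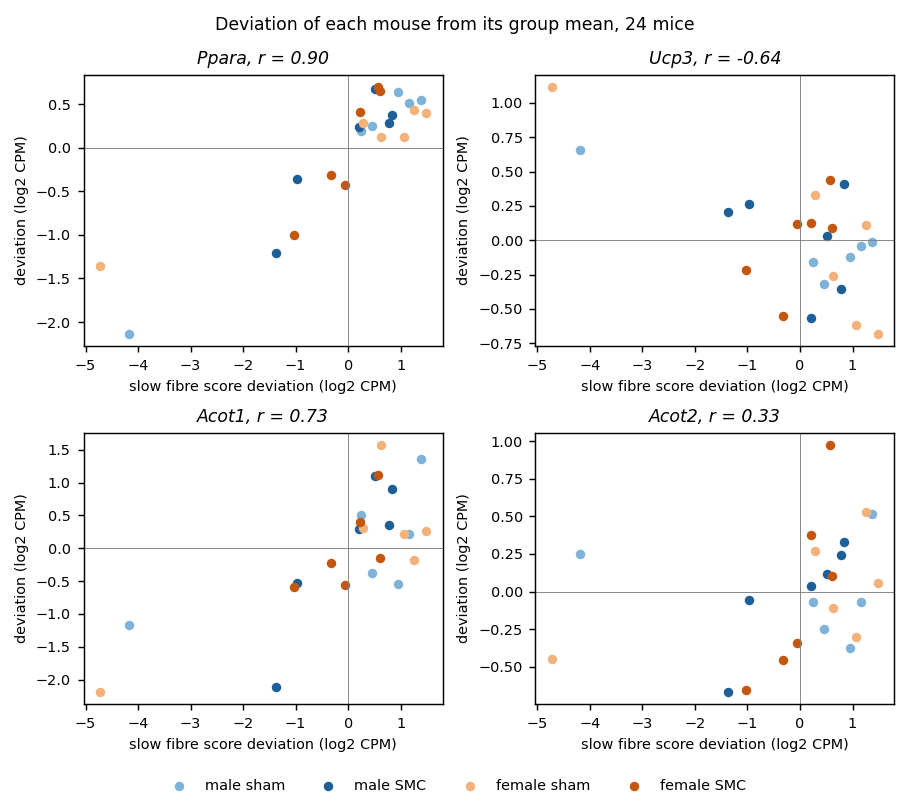
Deviation of each mouse from its group mean for Ppara, Ucp3, Acot1 and Acot2 (vertical axes, log2 CPM) against that of the slow fibre score (horizontal axes, log2 CPM), 24 mice coloured by group. The 2 points on the far left are male sham mouse 4 and female sham mouse 7, and Ppara follows the score without them as well (r = 0.85).

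Among themselves the 8 genes formed 28 pairs, of which 4 passed an FDR of 0.05 on Pearson r over 24 mice. The share of all gene pairs with such values was not measured, so that this count cannot be called particular to the 8. The 4 pairs were Ppara with Acot1 (r = 0.75, FDR 0.00280; rho = 0.61), Acot1 with Acot2 (r = 0.61, FDR 0.0178; rho = 0.63), Ppara with Cpt1a (r = 0.64, FDR 0.0301; rho = 0.44) and Cpt1a with Acot1 (r = 0.60, FDR 0.0301; rho = 0.49). Without the 2 mice farthest on the second gene of each pair, r was 0.60, 0.43, 0.31 and 0.57. The pair of Ppara with Cpt1a thus rests on mice 4 and 7, and the transcripts of Acot1 and Acot2 share stretches of sequence, as shown above. The receptors had r = -0.54 with each other (FDR 0.0832; r = -0.27 without male sham mice 1 and 4). Ucp2 with Ucp3 had r = 0.01 (FDR 0.997).

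Of 9250 genes with a mean level of at least 5 CPM, those whose deviations were most like each gene over the 24 mice were named as a description. Mice 4 and 7, which lie far from the rest on the slow fibre score, were included. Likeness without them was not measured, so that these values may rest largely on those mice. Ppara was most like Zdhhc23 (r = 0.97) and Pank1 (r = 0.96), Ppard most like Stk25 (r = 0.92) and Sgsm3 (r = 0.88), and Cpt1a most like Slc12a4 (r = 0.84) and Arhgap18 (r = 0.83). Ucp3 was most like Slc30a2 (r = 0.83) and Tsr1 (r = 0.80), and Ucp2 most like Wnt11 (r = 0.80) and Trib1 (r = 0.76). Acot1 was most like Map6 (r = 0.89) and Slc25a22 (r = 0.88), Acot2 most like Acss1 (r = 0.83) and 2310057M21Rik (r = 0.79), and Angptl4 most like Ice1 (r = 0.72) and Rptor (r = 0.70). Pdk4 itself was most like Rnf20 (r = 0.74) and Alpk2 (r = 0.73), so that none of the 8 genes was among its nearest pair.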

How the data were processed

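RNA was taken from the gastrocnemius muscle of 24 mice, and rRNA-depleted directional libraries were sequenced. The deposited values are raw counts per Ensembl gene, 1 column per mouse, with no normalization. Submitters' processing notes name cutadapt 1.16, STAR 2.7.9a, featureCounts 1.6 and DESeq2 1.34.0 and build GRCm39; the strand setting is not given in the sources used here. Samples were grouped by labelled sex and treatment. The 8 genes and the lists were chosen with earlier results of these data known. Genes were kept by filterByExpr (16408), normalized by TMM and fitted in edgeR 4.0.16 (R 4.3.3) with 1 mean per group, with two-sided quasi-likelihood tests and Benjamini-Hochberg FDR over all genes. Fold changes are on the log2 scale of the fit. Each SE is the absolute log2 fold change divided by the square root of the F of its quasi-likelihood test. Correlations used log2 CPM (prior count 2), less group means, with 100000 permutations within groups (exact in groups of 6) in Python 3.11.15. Alternatives were DESeq2 1.42.0, limma 3.58.1, other filters, a slow fibre covariate and libraries left out; relations with marker scores and between members were added after seeing the data. Of each list the text names genes past the threshold and the 2 largest and 2 smallest values. Labels number the mice and give no litter or batch, so p-values measure the spread between these 24 samples. By the paper, sham and SMC mice shared housing as pairs in some experiments and had separate cages in others. Which of these holds for these mice is not given in the sources used here, and the tests treat each mouse as independent. Lengths, sequence identity and promoters came from GRCm38 gene models, and no GRCm39 coordinates were used. Programs were checked on simulated data.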

Additional observations from a re-analysis of the deposited data

Results flagged for a closer look

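Of 36 sets of 6 mice (9 genes in 4 groups), 5 held a mouse whose gap to the nearest other, as a share of the range on the log2 scale, was over Dixon's critical value, where chance would give about 1.8. Ppara was low in male sham mouse 4 (4.06 CPM, against 20.6 to 28.2 CPM in the other 5) and in female sham mouse 7 (10.5 CPM, against 29.4 to 36.4 CPM). Ucp3 was high in male sham mouse 4 (363 CPM, against 186 to 229 CPM). These mice are the ones low in slow fibre markers. Angptl4 was low in male sham mouse 2 (4.08 CPM, against 8.80 to 13.6 CPM) and in female SMC mouse 19 (3.03 CPM, against 7.65 to 9.65 CPM). The part of tissue sampling in these values was not tested.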

How the results depend on the processing

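No paired analysis was possible because the mouse numbers in the labels run from 1 to 24 and no number is shared between groups. Members called in females numbered 1, but 0 under limma voomWithQualityWeights and with the 12 female libraries alone, 2 without mice 4 and 7 together, 4 with the slow fibre covariate, and 0 to 1 with 1 library left out. In the average they numbered 2, but 1 under limma and 5 with the covariate, and 2 in each fit with 1 library left out. Genes called in males numbered 0, but 128 under DESeq2, 93 under limma, 9 with the covariate and 0 to 78 with 1 library left out (78 without male sham mouse 5). In females 56 became 268 under DESeq2, 16 under limma, 177 with the covariate, 155 without mice 4 and 7, 14 with the female libraries alone and 0 (without female SMC mouse 22) to 147 (without female sham mouse 9). In the average 388 became 778 under DESeq2, 189 with no filter, 728 with the covariate and 236 to 501 with 1 library left out. For the interaction 0 became 1 under DESeq2 and 0 to 1 with 1 library left out. Between sham groups 324 became 575 under DESeq2, 745 with the covariate, 511 without mice 4 and 7, and 187 to 487.

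Signs turned in values that passed no test. Under limma these were Ppard in males (0.078) and in the average (0.019), Angptl4 in males (0.23), Ucp2 in females (0.022) and the interactions of Ucp2 (-0.20) and Acot2 (0.12). With the covariate they were Ppard in males (0.053), females (0.0053) and the average (0.029) and Cpt1a in males (-0.040). Without mice 4 and 7 they were Ppard in males (0.072) and the average (0.028), Cpt1a in males (-0.038) and the interaction of Acot2 (0.070). With no filter it was the interaction of Ucp2 (-0.0069). With 1 library left out, Ppard in males ranged from -0.087 to 0.072, Cpt1a in males from -0.038 to 0.082, Acot1 in males from -0.34 to 0.32 and between sham groups from -0.73 to 0.13, and the interactions of Ppard from -0.0097 to 0.15, of Ucp2 from -0.17 to 0.17 and of Acot2 from -0.18 to 0.20. Of the other genes named, Cpt2 turned with the covariate (-0.083) and without mice 4 and 7 (-0.012), Ech1 with the covariate (-0.077), Irs2 under limma (0.11), and Txnip under DESeq2 (0.0011), limma (0.030) and without mice 4 and 7 (0.0051). With 1 library left out Irs2 ranged from -0.14 to 0.047 and Txnip from -0.031 to 0.035. Acot1 had no value with at least 10 counts required in every library.

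Of the correlations with Pdk4, Acot2 passed the threshold with unscaled CPM (r = 0.61), without mice 4 and 7 (r = 0.64), with the slow fibre score removed (r = 0.66) and with group means kept (r = 0.74), and ranged from 0.53 to 0.65 with 1 library left out. Angptl4 passed with group means kept (r = 0.60) and Cpt1a without mice 4 and 7 (r = 0.63). Ppard turned sign with unscaled CPM (r = -0.036) and without mice 4 and 7 (r = -0.061), and Ucp2 with unscaled CPM (r = 0.081) and group means kept (r = 0.049), and Ucp2 ranged from -0.14 to 0.044 with 1 library left out. Ucp3 kept its call in all 24 fits of that kind. The causes of these changes were not tested.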
